A study of Drosophila melanogaster with 4 samples.

Results

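The 10 genes described here are core components of the small RNA pathways of Drosophila melanogaster, taken from the count table by name: pasha, Dcr-1, loqs and AGO1 of the miRNA pathway, Dcr-2, r2d2 and AGO2 of the siRNA pathway, and piwi, aub and AGO3 of the piRNA pathway. All 10 were found among the 13926 genes of the count table, and all 10 had enough counts to be tested, as did 9609 genes in total. Head RNA was sequenced from male flies at D50 (Day 50 of adult life) in 4 libraries. The control siblings (+/+) gave 2 libraries, and the NelfA*/+ flies, which carry a P-element insertion in one copy of Nelf-A on chromosome arm 3R, gave the other 2. Both genotypes came from crosses backcrossed repeatedly to w1118 males, so that they share this background, and each library was made from pooled heads, so that variation between single flies was not measured. NELF-A is a subunit of the negative elongation factor, which holds RNA polymerase II (RNAPII) in a paused state near the start of genes. The insertion is present in every cell of the fly, so that no cell type was targeted.

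Small RNAs guide Argonaute proteins to target transcripts. In the miRNA pathway, Drosha with its partner Pasha cuts hairpins from nuclear transcripts, Dcr-1 with its partner Loqs cuts them to mature miRNAs, and AGO1 carries these to messenger RNAs that are then repressed. In the siRNA pathway, Dcr-2 cuts long double-stranded RNA from viruses and transposons, R2D2 helps to load the product, and AGO2 slices the targets; this is the main small RNA defence against transposons outside the germline. The piRNA pathway works mainly in the gonads, where Piwi silences transposons in the nucleus and Aub and AGO3 slice their transcripts in the cytoplasm. The study asks how NELF-A dosage bears on heterochromatin and retrotransposons in aged heads, and the comparison here asks whether transcripts of the silencing machinery differed between the genotypes. Small RNAs and transposon transcripts themselves were not analysed here.

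Counts on genes came to between 42985746 and 45172099 per library, and Nelf-A was examined first as a check of the labels. Its normalised counts were 3598 and 3365 in control siblings, against 2386 and 2398 in NelfA*/+ heads, which was 68.7% of the control level (log2 fold change -0.54, standard error 0.07, adjusted p = 0.0411 in edgeR's quasi-likelihood test). The adjusted p of Nelf-A rose to 0.0584 without the filter on low counts, and to 0.259 and 0.145 without control sibling replicate 1 and replicate 2. Head markers were present, with between 1587824 and 1947169 counts of the rhodopsin gene ninaE and between 2439 and 2675 of the glial gene repo. The neuronal gene elav had at most 8 counts in a library and Syx1A none, but only 1.87% of the exonic bases of elav and 0% of those of Syx1A lie outside other annotated genes, so that these counts say nothing of their expression. Of 7 tested midgut markers 6 were higher in both NelfA*/+ libraries than in both control libraries, against 26.1% of all genes tested. At an adjusted p below 0.05 edgeR called 1 of them, Jon65Aiii, as higher, against 0.645% of all genes tested. DESeq2 called 4 as higher, where it called 9.11% of all genes tested in either direction. The protease gene Jon65Aiii had 4 and 4 raw counts in control siblings, against 3283 and 1546 in NelfA*/+ heads. The summed normalised counts of the list, which the amylase gene Amy-p dominates in control siblings, were 26001 and 23503 in that genotype, 50971 in NelfA*/+ replicate 1 and 25612 in replicate 2, and PGRP-SC1a was at 0 in every library. Amy-p, the one midgut marker with lower counts, had 20856 and 18291 raw counts in control siblings, against 13674 and 15203 in NelfA*/+ heads. Of 7 head fat body markers 5 were lower in both NelfA*/+ libraries than in both control libraries, against 26.0% of all genes tested, and 1 was higher. DESeq2 called Yp1, Yp2 and to as lower, where it called 9.11% of all genes tested in either direction. EdgeR called 0 of the 7 markers. In edgeR's test 4 were lower at an unadjusted p below 0.05, against 10.7% of all genes tested. The summed normalised counts of the fat body list were 271023 and 213166 in control siblings, against 210938 and 223865 in NelfA*/+ heads. The part of midgut and fat body RNA in the results below was not tested.

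None of the 10 genes changed at an adjusted p below 0.05, in either direction. The smallest adjusted p among them was 0.209 in edgeR's quasi-likelihood test, adjusted over all 9609 genes, of which 1.87% were called, 0.645% as higher and 1.23% as lower in NelfA*/+ heads. DESeq2's Wald test called 0 of the 10 as well, where it called 9.11% of the same 9609 genes and 8.98% of the 10144 to which it gave an adjusted p, and its smallest adjusted p for the 10 was 0.292. At an unadjusted p below 0.05 in edgeR's test, 2 of the 10 passed, pasha higher and Dcr-2 lower, against 20.3% of all genes tested (9.60% higher and 10.7% lower). In 6 of the 10 the libraries of the genotypes did not overlap, 4 of them lower (AGO2, Dcr-2, r2d2 and Dcr-1) and 2 higher (pasha and aub) in NelfA*/+ heads. Among all genes tested this held for 52.1%, 26.0% lower and 26.1% higher, so that the share of the 10 is near the background. A log2 fold change below 0 was found for 6 of the 10 and for 47.7% of all genes tested. The median log2 fold change of the 10 was -0.09, and that of all genes tested 0.01. The 95% interval of the difference stayed within a log2 fold change of -1 and 1 for 9 of the 10 and for 84.7% of all genes tested, and aub was the exception among the 10.

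**Figure D1:**
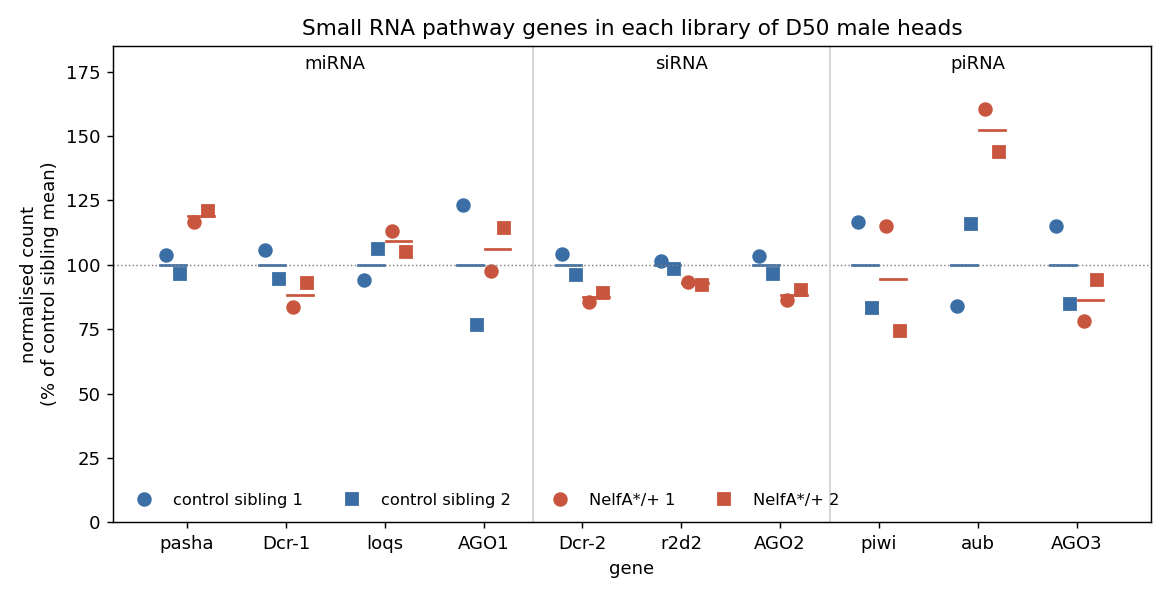
Normalised counts of the 10 genes in each of the 4 libraries, as a percentage of the mean of the control siblings (circles, replicate 1; squares, replicate 2; blue, control siblings; red, NelfA*/+; short lines, means of each genotype). The NelfA*/+ means of the 3 siRNA genes lie at 87.4% (Dcr-2), 88.2% (AGO2) and 92.8% (r2d2), while AGO1, piwi, aub and AGO3 spread widely between libraries of the same genotype.

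Among the miRNA genes, pasha, which encodes the double-stranded RNA-binding partner of Drosha (FBgn0039861; 3R, 31617977 to 31622217 on the forward strand), had slightly higher counts in NelfA*/+ heads, without passing the test. It had 566 and 525 normalised counts in control siblings, against 637 and 659 in NelfA*/+ heads. Both NelfA*/+ libraries thus lay above both control libraries, and the mean was 119% of the control mean. For pasha this gave a log2 fold change of 0.25 (standard error 0.09, 95% interval 0.03 to 0.47, unadjusted p = 0.0334, edgeR adjusted p = 0.209). The nuclease gene drosha itself, on 2R, had 931 and 1105 raw counts in control siblings, against 943 and 904 in NelfA*/+ heads, which overlap (log2 fold change -0.08, edgeR adjusted p = 0.656). Pasha and Drosha form one complex, and the interval of the pasha change (0.03 to 0.47) overlaps that of drosha (-0.31 to 0.14); the difference between these 2 genes was not tested.

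Dcr-1, the ribonuclease that makes miRNAs (FBgn0039016; 3R, 22734007 to 22741091 on the reverse strand), differed in the other direction. Its normalised counts were 1050.0 and 938 in control siblings, against 830.0 and 925 in NelfA*/+ heads. Replicate 2 of each genotype lay close together, at 938 and 925, although the genotypes did not overlap. The mean in NelfA*/+ heads was 88.3% of the control mean, a log2 fold change of -0.18 (standard error 0.10, 95% interval -0.43 to 0.07, edgeR adjusted p = 0.378). Dcr-1 is the member closest to Nelf-A, 1.504 Mb away on the same arm, and pasha lies 10.4 Mb away. Of the 895 tested genes within 5 Mb of Nelf-A 2.57% were called, and of all 2434 on 3R 2.75%. Of the 7174 genes on other arms or without a known position 1.56% were called. Differences between these shares were not tested. For genes on this arm, an effect of NELF-A and one of sequence that came with the insertion cannot be told apart.

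Loqs is the double-stranded RNA-binding partner of Dcr-1, and an isoform of it also serves Dcr-2. The gene (FBgn0032515; 2L, 13382652 to 13385671 on the forward strand) had 6682 and 7551 normalised counts in control siblings, against 8040 and 7481 in NelfA*/+ heads. NelfA*/+ replicate 2 lay below control sibling replicate 2, so that the genotypes overlapped. The log2 fold change was 0.12 (standard error 0.09, 95% interval -0.11 to 0.36, edgeR adjusted p = 0.512). Isoforms are not separated in counts per gene, and 81.7% of the exonic bases of loqs lie outside other annotated genes. The rest lie under an antisense RNA gene, where reads could not be given to a single gene if strand was not used.

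AGO1, the Argonaute of the miRNA pathway (FBgn0262739; 2R, 13943387 to 13958089 on the reverse strand), had the most counts of the 10 and the largest difference between the control replicates. Normalised counts were 29514 and 18379 in control siblings, against 23386 and 27352 in NelfA*/+ heads. Both NelfA*/+ libraries lay between the control libraries, so that no direction can be read. The log2 fold change was 0.08 (standard error 0.24, 95% interval -0.54 to 0.71, edgeR adjusted p = 0.890), and it became -0.22 without control sibling replicate 2 and -0.03 without NelfA*/+ replicate 2. Between the control replicates AGO1 differed by a log2 ratio of -0.68 (replicate 2 to replicate 1), a size exceeded by 4.58% of the genes tested. The ratio between the NelfA*/+ replicates had the other sign, 0.23.

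Genes with a profile across the 4 libraries like that of AGO1 were looked up among 8364 others with a mean count above 100, by the Euclidean distance of log2 CPM (counts scaled to the same library total, centred on the mean of each gene). The nearest were qvr, a regulator of potassium channels (distance 0.024), Pkc98E, a protein kinase C gene (0.026), and Trf2, a TBP-related factor (0.028). With 4 libraries many genes share any one profile, so that these names are a description only. Neuronal genes also differed between the control replicates: the log2 ratio of replicate 2 to replicate 1 was -0.92 for the sodium channel gene para, -0.81 for Syt1 and -0.72 for brp, but -0.18 for nSyb and -0.16 for futsch. The summed normalised counts of the 7 neuronal markers were 224301 and 160282 in control siblings, against 205784 and 230980 in NelfA*/+ heads, lowest in control sibling replicate 2 as for AGO1. Their part in the AGO1 values was not tested, and in these whole-head samples fewer cells of a type and less RNA per cell cannot be told apart.

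The 3 siRNA genes were each slightly lower in NelfA*/+ heads, and none of them passed the test. Dcr-2, which cuts double-stranded RNA to siRNAs (FBgn0034246; 2R, 17574979 to 17581525 on the reverse strand), had 3019 and 2782 normalised counts in control siblings, against 2484 and 2587 in NelfA*/+ heads. The libraries of the genotypes were separate, and the mean was 87.4% of that in control siblings. This corresponds to a log2 fold change of -0.19 (standard error 0.08, unadjusted p = 0.0492, edgeR adjusted p = 0.244). Its 95% interval reached from -0.39 to -0.00097, so that its upper end lay next to 0.

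AGO2, the slicing Argonaute of the siRNA pathway (FBgn0087035; 3L, 15554113 to 15561042 on the forward strand), had 12825 and 11982 normalised counts in control siblings, against 10707 and 11167 in NelfA*/+ heads. Here too the higher NelfA*/+ library lay below the lower control library, with a mean of 88.2% of the control mean. For AGO2 this was a log2 fold change of -0.18 (standard error 0.08, 95% interval -0.38 to 0.02, edgeR adjusted p = 0.291). Of 8364 other genes with a mean count above 100, the one with the profile nearest to AGO2 was Dcr-2, at a distance of 0.018. It was followed by sinu, a claudin of septate junctions (0.019), and CG31357 (0.020), so that other genes lie about as near.

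R2D2, a double-stranded RNA-binding protein, works with Dcr-2 in loading siRNAs into AGO2. Its gene r2d2 (FBgn0031951; 2L, 7800147 to 7802098 on the forward strand) had 1048 and 1015 normalised counts in control siblings, against 964 and 950.4 in NelfA*/+ heads. These libraries were separate as well, and the replicates of each genotype lay closest together of all 10 genes. The mean in NelfA*/+ heads was 92.8% of the control mean, a log2 fold change of -0.11 (standard error 0.07, 95% interval -0.28 to 0.06, edgeR adjusted p = 0.442). Hen1, the methyltransferase that protects the ends of siRNAs and piRNAs, is named here after its values were seen. It had 398 and 366 normalised counts in control siblings, against 313 and 306 in NelfA*/+ heads (log2 fold change -0.30, standard error 0.11, edgeR adjusted p = 0.222). Of 17 tested genes on a longer list of siRNA genes, 9 were higher and 8 lower in NelfA*/+ heads (median log2 fold change 0.07).

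**Figure D2:**
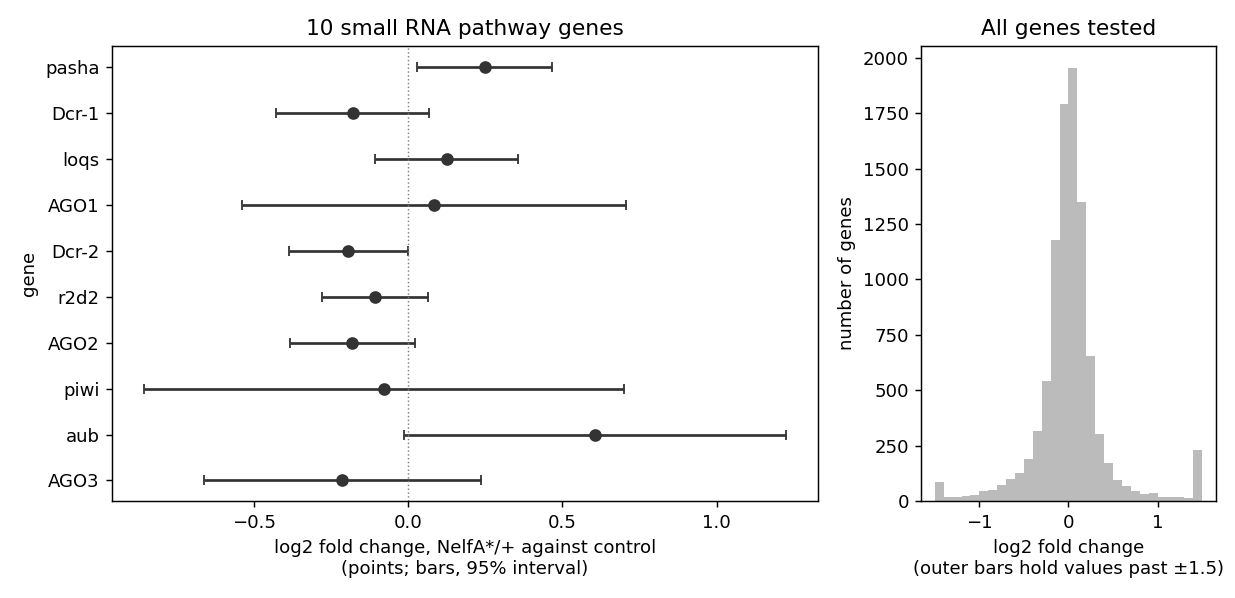
Left, log2 fold change of each of the 10 genes in NelfA*/+ heads against control siblings (points) with its 95% interval from edgeR's quasi-likelihood fit (bars). Right, the number of genes at each log2 fold change among all 9609 tested, with values past ±1.5 in the outer bars. Only the intervals of pasha (0.03 to 0.47) and Dcr-2 (-0.39 to -0.00097) leave out 0, before any adjustment for the number of genes tested.

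The piRNA genes piwi and aub had few counts in heads, while AGO3 had many more. Piwi is the nuclear Argonaute that guides heterochromatin to transposons. The gene piwi (FBgn0004872; 2L, 10982205 to 10987420 on the reverse strand) had 141 and 105 raw counts in control siblings, against 140 and 86 in NelfA*/+ heads. In each genotype replicate 1 was higher than replicate 2, and the genotypes overlapped throughout. The exact Poisson intervals of these counts, which cover counting error only, ran from 119 to 166 and from 85.9 to 127 in control siblings, and from 118 to 165 and from 68.8 to 106 in NelfA*/+ heads. Piwi transcripts showed a log2 fold change of -0.08 (standard error 0.30, 95% interval -0.86 to 0.70, edgeR adjusted p = 0.918). The Poisson intervals of the NelfA*/+ libraries did not overlap, so that the replicates differed by more than counting error. The log2 fold change was 0.18 without control sibling replicate 1 and 0.20 without NelfA*/+ replicate 2.

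Aub, a cytoplasmic slicer, is encoded by the neighbour of piwi in the genome (aub, FBgn0000146; 2L, 10997819 to 11001476 on the reverse strand). It had 64 and 92 raw counts in control siblings, against 123 and 105 in NelfA*/+ heads. Both NelfA*/+ libraries were higher. The exact Poisson interval of control sibling replicate 1 (49.3 to 81.7) overlapped neither that of NelfA*/+ replicate 1 (102 to 147) nor that of replicate 2 (85.9 to 127). The interval of control sibling replicate 2 (74.2 to 113) overlapped both. The log2 fold change of aub was 0.61, the largest of the 10, with a standard error of 0.24 and a 95% interval of -0.01 to 1.224 (unadjusted p = 0.0537, edgeR adjusted p = 0.256). It lay between 0.39 and 0.85 when each library in turn was left out.

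AGO3, the partner of Aub in slicing (FBgn0250816; 3L, 23554593 to 23689640 on the forward strand), spans 135048 bases with 3182 bases of exon, and overlaps no other annotated gene. Its normalised counts were 3930.2 and 2898 in control siblings, against 2674 and 3215 in NelfA*/+ heads. Control sibling replicate 2 lay between the NelfA*/+ libraries, so that the genotypes overlapped. For AGO3 the log2 fold change came to -0.21 (standard error 0.17, 95% interval -0.66 to 0.23, edgeR adjusted p = 0.560), and it was 0.020 without control sibling replicate 1. Between replicate 2 and replicate 1 the log2 ratio of AGO3 was -0.44 in control siblings and 0.27 in NelfA*/+ heads, the same signs as for AGO1.

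To set the genes beside each other, CPM were divided by the exonic length of the gene in kilobases. On this per-length scale loqs, AGO2 and AGO1 were the most abundant, with mean levels in control siblings of 70.5, 67.7 and 65.2. Each was higher than between 89.0 and 89.9% of 9571 tested genes with a known length. These 3 levels did not differ beyond the spread of the libraries, since AGO1 alone had 78.9 and 51.5 in the control siblings. AGO3 followed at 24.2, then r2d2 at 12.4 and Dcr-2 at 11.5, and then pasha at 3.84 and Dcr-1 at 3.25. Piwi and aub were lowest, at 0.889 and 0.575, and 10.9% and 8.33% of the genes tested were lower. Within control siblings the libraries of r2d2 and Dcr-2 did not overlap, nor did those of pasha and Dcr-1 or of piwi and aub, and AGO3 stood apart from its neighbours in all 4 libraries. The order of piwi and aub was turned in NelfA*/+ replicate 2, where piwi was at 0.651 and aub at 0.810.

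Per length, the siRNA nuclease gene Dcr-2 thus stood above the miRNA nuclease gene Dcr-1 in every library, at 3.496 and 3.61 times its level in the control siblings and 3.64 and 3.40 times in NelfA*/+ heads. This ratio differed between libraries of a genotype by as much as between the genotypes. The ratio of the Argonautes, AGO2 to AGO1, was 0.868 and 1.30 in control siblings, against 0.915 and 0.816 in NelfA*/+ heads, and control sibling replicate 2, the library with the lowest AGO1 level, stood apart. AGO3 was present at between 0.315 and 0.399 times the level of AGO2. Reads from introns may enter these levels, because 1199 of the 1226 genes whose exons lie wholly in the introns of another gene are listed at 0 in all 4 libraries, as counting over whole genes would give. A level per exonic base would then be too high for a gene with long introns such as AGO3.

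**Figure D3:**
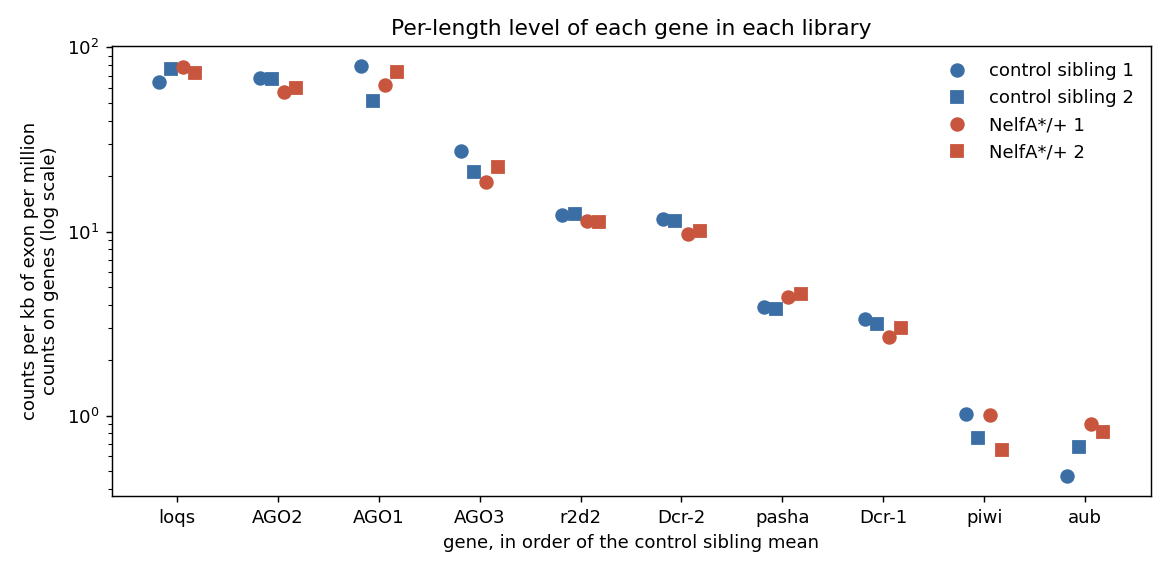
Level of each of the 10 genes in each library, in CPM per kilobase of exon, on a log scale (circles, replicate 1; squares, replicate 2; blue, control siblings; red, NelfA*/+). The genes are in the order of the control sibling mean, from loqs at 70.5 to aub at 0.575.

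Germline genes were examined because the piRNA pathway is best known from the gonads. Of 22 germline and testis markers, 5 (nos, Mst84Da, comr, sa and fzo) are listed at 0 in all 4 libraries and 11 more had too few counts to test. Of those at 0, sa and fzo have no exonic base outside other annotated genes, Mst84Da has 24.9% of them outside, and nos was not matched to the annotation, so that comr alone is at 0 with all of its exonic bases free of other genes. The germline helicase gene vas, taken from the piRNA genes, had 35 and 31 raw counts in control siblings, against 21 and 20 in NelfA*/+ heads. Of the 6 that were tested, the RNA-binding protein gene bol stood apart, with between 15761 and 29375 counts per library, and it made up most of the summed normalised counts of the list, 30193 and 15899 in control siblings and 20728 and 24764 in NelfA*/+ heads. Low counts did not all follow one library: Mst87F (40 counts), Mst98Ca (23 counts), Mst98Cb (19 counts), dj (19 counts) and ocn (18 counts) were highest in control sibling replicate 2, can in control sibling replicate 1 (72 counts) and bam in NelfA*/+ replicate 1 (24 counts). The part of germline cells in the counts of piwi and aub was not tested.

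The other genes of the pathways were taken from 4 lists by function, which share some members. Of 83 different genes, 74 were tested, 4 had too few counts and 5 (vig, squ, SoYb, rhi and CG12721) are listed at 0 in all 4 libraries. The exons of these 5 lie wholly under other annotated genes, so that a 0 says nothing of their expression. In 16 of the 74 both NelfA*/+ libraries were higher and in 23 both were lower than the control libraries, against 26.1% and 26.0% of all genes tested. Of the 74, 0 passed an adjusted p of 0.05 in edgeR's test, against 1.87% of all genes tested. At an unadjusted p below 0.05 in edgeR's test, 5 were higher and 6 lower, against 9.60% and 10.7% of all genes tested. DESeq2's Wald test called 6 of the 74, against 9.11% of all genes tested. It called Hsp83, Stip1, Droj2 and Hsc70-4 as higher and mino and qin as lower. The median log2 fold change of the 74 was -0.02.

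The list of miRNA production and of miRISC, the effector complex that silences target messenger RNAs, had the narrowest range of log2 fold changes of the 4 lists. All 22 of its genes were tested, 11 were higher and 11 lower, and the median log2 fold change was -0.0049. Its range was from -0.18 (Dcr-1) to 0.25 (pasha), so that both ends are held by the genes described above. Edc3, an activator of messenger RNA decapping, was the next largest of those with separate genotypes, at a log2 fold change of 0.14 (edgeR adjusted p = 0.441). The scaffold gene gw, whose protein GW182 binds AGO1, had between 23535 and 24652 raw counts in all 4 libraries, with a log2 fold change of 0.03 (95% interval -0.21 to 0.28).

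Hsp83 and Stip1 belong to the chaperone machinery that loads small RNAs into Argonautes, and both stand on the siRNA and the cytoplasmic piRNA list. Hsp83 had the largest log2 fold change of the tested pathway genes, and only Hsp83 and shu (1.05, given below) exceeded Stip1. Hsp83, the fly Hsp90, had 37995 and 64245 normalised counts in control siblings, against 134742 and 168062 in NelfA*/+ heads. Both NelfA*/+ libraries were above the higher control library, although the control siblings themselves differed widely. The log2 fold change of Hsp83 was 1.57 (standard error 0.29), with an adjusted p of 0.0751 in edgeR's test and 0.00221 in DESeq2's. Stip1, known as Hop, which links Hsp70 to Hsp90, had 3145 and 3391 normalised counts in control siblings, against 5424 and 7055 in NelfA*/+ heads (log2 fold change 0.93, standard error 0.14, edgeR adjusted p = 0.0542, DESeq2 adjusted p = 9.2e-07).

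The cochaperone gene Droj2 and the Hsp70 gene Hsc70-4 also had higher counts in both NelfA*/+ libraries, with log2 fold changes of 0.43 and 0.38 (edgeR adjusted p of 0.0930 and 0.220, DESeq2 adjusted p of 4.6e-05 and 0.00259). These chaperones serve many proteins besides Argonautes. The RNA helicase gene spn-E, of the piRNA pathway, was lower in both NelfA*/+ libraries, at 157 and 123 normalised counts against 202 and 251 (log2 fold change -0.69, edgeR adjusted p = 0.164).

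In the list of cytoplasmic piRNA genes 25 of 29 were tested, of which 11 were higher and 14 lower (median log2 fold change -0.06). Its highest log2 fold changes include those of Hsp83 and Stip1, given above. The lowest was mino (FBgn0027579; 3R, 27925191 to 27933077), which encodes a glycerol-3-phosphate acyltransferase of mitochondria that is needed for piRNA production in the ovary. It had 14471 and 13230.3 normalised counts in control siblings, against 9100.1 and 7697 in NelfA*/+ heads, or 60.6% of the control mean (log2 fold change -0.72, standard error 0.11, edgeR adjusted p = 0.0585, DESeq2 adjusted p = 1.5e-06). As an enzyme of lipid synthesis it has a role outside the piRNA pathway, and 56.1% of its exonic bases lie outside other annotated genes. The Tudor-domain gene qin (3R, 18591027 to 18650137), whose protein keeps Aub and AGO3 in partnership, had 645 and 583 normalised counts against 422 and 395, or 66.6% (log2 fold change -0.59, edgeR adjusted p = 0.0682, DESeq2 adjusted p = 0.00560).

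The genes mino, qin and spn-E lie on the arm of Nelf-A, at 6.70, 2.57 and 5.38 Mb from it, and so do Hsc70-4 and Droj2, at 5.98 and 7.84 Mb. For these genes too linked sequence cannot be told apart from the genotype. The cochaperone gene shu had 27 and 13 raw counts in control siblings, against 37 and 43 in NelfA*/+ heads, and its log2 fold change of 1.05 had a standard error of 0.46 (edgeR adjusted p = 0.298). Of the rest, zuc, the nuclease that cuts piRNA precursors, had between 1 and 5 counts, and BoYb between 2 and 8.

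Among genes of nuclear piRNA silencing and of piRNA cluster transcription, 18 of 22 were tested, of which 7 were higher and 11 lower (median log2 fold change -0.02). The largest differences with separate genotypes were those of nxf2, CG13741 (Boot) and tej, all lower. The nuclear export factor variant gene nxf2, which acts with Piwi in silencing, had 280 and 294 normalised counts in control siblings, against 221 and 204.9 in NelfA*/+ heads (log2 fold change -0.43, standard error 0.12, unadjusted p = 0.0183, edgeR adjusted p = 0.159). CG13741 had a log2 fold change of -0.36 and tej, a Tudor-domain gene, one of -0.32 (edgeR adjusted p of 0.289 and 0.461). The gene egg, whose protein is the H3K9 methyltransferase recruited by the Piwi pathway, had a log2 fold change of -0.12 (95% interval -0.29 to 0.05, edgeR adjusted p = 0.399). Only 4.50% of the exonic bases of egg lie outside other annotated genes. The rest lie under an antisense RNA gene, where reads could not be given to a single gene if strand was not used.

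**Figure D4:**
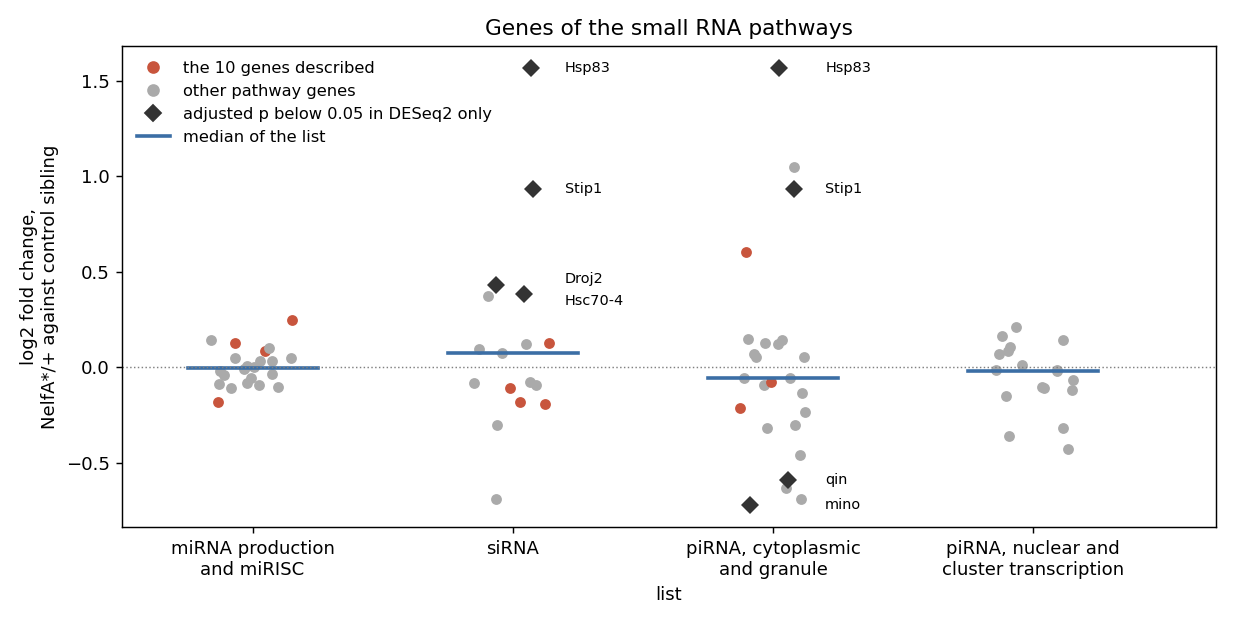
Log2 fold change, NelfA*/+ against control siblings, of every tested gene in the 4 lists of small RNA pathway genes (red, the 10 genes described; grey, other genes; black diamonds, genes with an adjusted p below 0.05 in DESeq2's Wald test and not in edgeR's; blue lines, medians). A gene on several lists is drawn in each. The medians lie between -0.06 and 0.07, and the chaperone gene Hsp83, at 1.57, stands highest.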

How the data were processed

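The authors trimmed the reads, aligned them with STAR 2.5 to BDGP6 and ran HTSeq-count over the genes; they deposited raw counts, without normalization. The counting mode, feature type and strand setting are not given in the sources used here. The authors' DESeq2 table of fold changes and p-values was not used. HTSeq-count's summary lines were left out of tests and totals; reads ambiguous between genes made up between 7.47 and 8.00% of a library.

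From the counts, edgeR 4.0.16 in R 4.3.3 was run with filterByExpr, TMM normalization, glmQLFit and glmQLFTest on genotype alone, with p-values of 9609 genes adjusted by Benjamini-Hochberg and called below 0.05. Normalised counts are counts divided by the effective (TMM) library size and multiplied by the mean of these sizes. A standard error is the log2 fold change over the square root of edgeR's F, and intervals (95%) use its degrees of freedom. SciPy 1.17.1 gave Poisson intervals. Log2 CPM used a prior count of 2. The steps were tested on simulated data.

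Sampling noise was exceeded between replicates in both genotypes (chi-square over degrees of freedom 70.8 and 56.6), so no library was counted as a repeat of another, which does not show that they are biological replicates; the study calls them so, the labels do not say from which flies each came, and p-values measure only the spread between these 4 samples. Genotypes and replicate numbers come from the labels. Coordinates and lengths come from Ensembl's annotation of BDGP6, in which 53 of the 13926 names had no match and 1089 matched by an older symbol; it is newer than the authors'. The members and gene lists were chosen with earlier results of these data known. Named beside the 10 genes are, per list, the 3 largest changes with separate genotypes, genes at 0, and the nearest profiles of AGO1, AGO2 and piwi; others were named after their values were seen. Alternatives were DESeq2 1.42.0 with its own test or its size factors in edgeR, library size alone, other filters, robust dispersions, the replicate block, limma-voom (limma 3.58.1), a threshold of 0.1, other gene lengths, and each library left out, where the lone library of a genotype was assumed to vary like the other 2.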

Additional observations from a re-analysis of the deposited data

How the results depend on the processing

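Across the 13 refits, 0 of the 10 genes passed an adjusted p of 0.05 in any, nor at an adjusted p below 0.1, and of 130 refitted log2 fold changes 125 kept their direction. The 5 that reversed came from leaving out 1 library. Without control sibling replicate 1 they were 0.020 for AGO3 and 0.18 for piwi, without control sibling replicate 2 -0.22 for AGO1, and without NelfA*/+ replicate 2 -0.03 for AGO1 and 0.20 for piwi. Leaving out 1 library gave between -0.22 and 0.46 for AGO1, -0.42 and 0.020 for AGO3, and -0.43 and 0.20 for piwi. Among all genes tested edgeR called 180, DESeq2 911, and 82 were called without the filter on low counts, 359 with robust dispersions, 118 by limma-voom, 578 at an adjusted p below 0.1 and, without 1 library, 2 (either control sibling library), 412 (NelfA*/+ replicate 1) or 554 (NelfA*/+ replicate 2). Of the 74 tested pathway list genes edgeR called 0, library size alone 2, robust dispersions 3 and an adjusted p below 0.1 5. DESeq2 called 6, and the minimum of 10 counts in every library gave 2. Each of these stands against the count over all genes given above for the same setting. The cause was not tested. Deviations from the genotype means correlated at -0.13 between libraries of the same number (8365 genes), so that the numbers do not pair them; with the replicate block 297 genes and 2 pathway list genes (Hsp83 and Stip1, both higher) were called, and the edgeR adjusted p of Nelf-A was 0.0537. With the pairing crossed between genotypes, an alternative added after seeing the data, the block gave 797 genes and 5 pathway list genes. Taking only exonic bases outside other genes changed the control sibling level of loqs to 86.3, of AGO2 to 73.4, of r2d2 to 16.1 and of pasha to 3.94. With 2 libraries a genotype, the median standard error of the 10 genes was 0.09 on the log2 scale, and 0.10 for all genes tested.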

Other observations

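The gene profiles nearest to that of piwi across the 4 libraries, among 8364 others with a mean count above 100, were those of CG4537, CG17167 and en, the homeobox gene engrailed, at distances of 0.14, 0.19 and 0.20. They share with piwi a higher count in replicate 1 of each genotype: CG4537 had 117 and 98 raw counts in control siblings, against 117 and 77 in NelfA*/+ heads. These distances are larger than those of the genes nearest to AGO1 and AGO2, at between 0.018 and 0.028, and piwi has far fewer counts.

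The germline list gene bol had 29375 and 15761 raw counts in control siblings, against 20189 and 23084 in NelfA*/+ heads. CG11486, the fly PAN3 of the deadenylation machinery, had 14172 and 9789 against 11674 and 13071. Both thus had their lowest count in control sibling replicate 2 and their highest in control sibling replicate 1, as AGO1 did.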
